A study of Mus musculus with 6 samples.

Results

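Mbp, Mag and Cnp encode proteins of myelin, and the m6A peaks of these 3 genes were described in whole mouse brain. The peaks were those whose summit lay in a fixed mm9 window around each gene: chromosome 18 from 82640000 to 82760000 for Mbp, chromosome 7 from 31683000 to 31701000 for Mag and chromosome 11 from 100435000 to 100444000 for Cnp. The windows held 29 of the 90215 peaks of the 3 deposited lists, and the lists of m6A IP 1, 2 and 3 gave 9, 15 and 5 of them. Merging peaks that shared at least 1 base gave 18 regions, of 43377 in all. No window was without a peak in any list.

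The study dealt with the place of RNA methylation in oligodendrocyte maturation. Its m6A-seq samples were 3 libraries of polyadenylated brain RNA enriched with an m6A antibody, called m6A IP 1, 2 and 3 here, and 3 input libraries made with no antibody. Each IP was set against 1 input. The labels name no strain, age, genotype or treatment, and they do not say whether the 3 replicates were different animals. The spread between replicates may therefore be technical. Run names in the headers contain ctl, an abbreviation that is not explained. Peak lists hold no expression level, so the tissue label could not be checked against marker genes.

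Myelin is the layered membrane that oligodendrocytes wrap around axons in the central nervous system. Myelin basic protein (Mbp) holds the inner faces of that membrane together, and its mRNA is carried out into the cell processes and translated there. The Mbp gene also gives rise to the golli transcripts from a promoter far upstream of the one used for the classic myelin proteins. Myelin-associated glycoprotein (Mag) is an adhesion molecule of the Siglec family that faces the axon. Cnp, or CNPase, is an enzyme of non-compact myelin that binds the cytoskeleton. N6-methyladenosine is an internal mark of messenger RNA, written by the Mettl3 and Mettl14 complex and often concentrated near stop codons.

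After duplicates were removed by the peak caller, the IP libraries had 5676427, 6493926 and 6327958 tags and their inputs 7436658, 11589632 and 7185922. The pileup is the number of these IP tags over the summit of a peak. Tags were 50 bases long and 1 was kept per position, so a base could carry at most 50 tags from 1 strand and 100 from both. The background is the local input behind the summit, scaled to the IP library by 0.763, 0.560 and 0.881 in m6A IP 1, 2 and 3. It was worked back from the pileup and the fold of each peak, and for 25 of the 29 peaks it came to whole input tags, with a tolerance of 0.01. MACS takes the background from a wider stretch or the genome average where that is higher. The fold enrichment is the authors' own value, the pileup over the background with 1 added to each. Intervals of pileups are exact Poisson 95% intervals that cover counting error only. Near 50 tags the removal of duplicates compresses the pileup, so there the interval is only a guide and like heights do not show like enrichment.

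Each gene had exactly 1 region that was found in all 3 replicates. That made 3 of 18 regions, or 16.7% (Wilson 95% interval 5.84 to 39.2), against 38.6% of all regions in the 3 lists. The interval treats regions as independent, which neighbours are not. It takes in the share of all regions, so the windows were not shown to differ from the lists as a whole in this respect. A further 5 regions were found in 2 replicates, all of them in the Mbp window, and 10 were found in 1 replicate. Counted as found in at least 2 replicates, 6 of 9 Mbp regions, 1 of 5 Mag regions and 1 of 4 Cnp regions recurred, against 61.2% of all regions. A region missing from a list was not called there, and its tag count in that library is not known from these data.

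**Figure D1:**
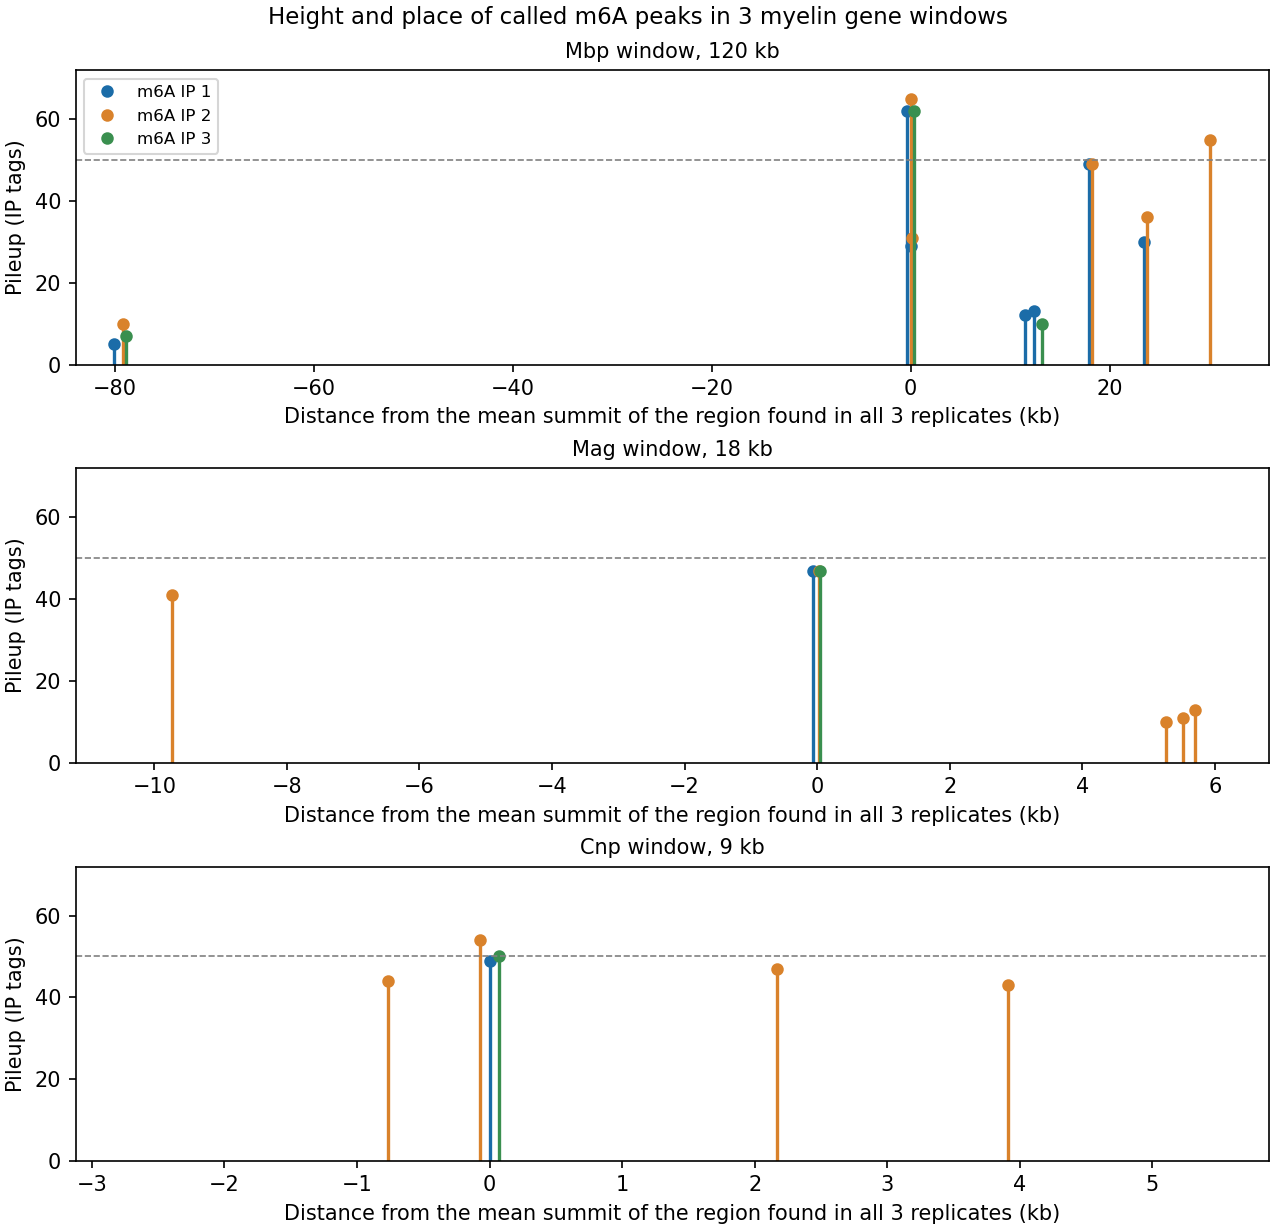
Place and height of every called peak in the windows of Mbp, Mag and Cnp. The horizontal axis is the distance in kb from the mean summit of the region found in all 3 replicates, the vertical axis is the pileup in IP tags, colours mark the 3 IP libraries, and points of the 3 libraries are set slightly apart sideways so that they can be seen. The dashed line is at 50 tags, the most that 1 strand can carry. The Mbp region at 0 stands above the line in every library at 62, 65 and 62 tags, and the remaining peaks of Mag and Cnp away from 0 come from m6A IP 2.

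The Mbp region found in all 3 replicates had the highest mean pileup and −log10 q of the 18. It lay on chromosome 18 from 82723927 to 82724100 and measured 174 bases. The pileup was 62 tags in replicate 1 (interval 47.5 to 79.5), 65 in replicate 2 (50.2 to 82.8) and 62 in replicate 3 (47.5 to 79.5). All 3 heights were above the limit of 1 strand, and the limit of 100 tags from both strands compresses differences between them. Only 26 of the 16757 regions found in all 3 replicates had a higher mean pileup.

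The fold of this Mbp region was 3.70, 5.17 and 3.23 in the 3 replicates, a mean of 4.03 ± 1.01 (SD, n = 3), over a background of 16.0, 11.8 and 18.5 scaled tags. The −log10 q was 13.9, 22.0 and 10.99. The mean fold lay below the median of 5.13 for all regions found in all 3 replicates, and 27.9% of those regions had a lower one. Its background was high, however, and in the whole lists peaks over at least 11 input tags had median folds of 2.75, 3.07 and 2.55, against 5.78, 5.96 and 5.43 for peaks over fewer than 5. Among the 939 regions found in all 3 replicates whose mean background was within 20% of that of Mbp, the median fold was 2.81, and 98.6% had a lower fold than Mbp. Mbp thus combined a high input with a fold near the top of what regions of like input showed. At like background the fold ranks regions much as the pileup does, and 99.0% of the 939 had a lower mean pileup. The rank by fold therefore adds little to the height already given.

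The summits of the Mbp region fell at the same place in each library. They were at 82723983, 82723982 and 82723985, a span of 3 bases. The median span over all regions found in all 3 replicates was 22 bases, and 86.5% of them had a wider one.

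A second Mbp region began 53 bases further on. It ran from 82724154 to 82724365 and had 29 tags at a fold of 2.96 in m6A IP 1 and 31 tags at a fold of 2.89 in m6A IP 2. The list of m6A IP 3 had no peak there. Height and fold were close in these libraries, but the summits were 173 bases apart, at opposite ends of the region. Merging across gaps of up to 100 bases would join it to its strong neighbour.

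The peaks of the Mbp window fell apart by their input. The 5 regions with a background of 11 or more input tags held 10 peaks of 29 to 65 tags, at folds of 1.89 to 5.17. The other 4 regions held 6 peaks of 5 to 13 tags, at folds of 3.95 to 5.21 over at most 3 input tags. No Mbp peak lay between these levels. The weaker group therefore had folds as high as the strong region, but each of its pileups was at most 3 tags above the lowest that the authors' threshold would have called.

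The high-input regions were all in the last part of the Mbp window. On chromosome 18 from 82742217 to 82742278, the pileup was 49 tags in both m6A IP 1 and m6A IP 2, at folds of 2.23 and 2.57, and the summits were 1 base apart. From 82747695 to 82747852 it was 30 and 36 tags in these libraries, at folds of 2.22 and 2.29. The last region, from 82754111 to 82754204, was called in m6A IP 2 alone, with 55 tags over 51 input tags at a fold of 1.89. Thus m6A IP 1 and 2 shared 3 regions that m6A IP 3 lacked.

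The low-input regions lay at the start of the window and between the strong ones. From 82644657 to 82644759, m6A IP 2 had 10 tags and m6A IP 3 had 7, at folds of 4.10 and 4.25. A peak of 5 tags in m6A IP 1, from 82644166 to 82644234, stood 422 bases before it and did not overlap it. From 82736767 to 82736872 m6A IP 1 had 13 tags and m6A IP 3 had 10, at folds of 4.26 and 4.18, and m6A IP 1 also had a peak of 12 tags from 82735788 to 82735865. No peak was called in the 79167 bases between 82644759 and 82723927. The Poisson intervals of these counts were wide, for example 4.80 to 18.4 for a pileup of 10.

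Mag had a region of nearly 1-strand height in every library. It lay on chromosome 7 from 31694072 to 31694264 and measured 193 bases. The pileup was 47 tags in each of m6A IP 1, 2 and 3 (interval 34.5 to 62.5). The fold was 1.83, 2.33 and 2.09, a mean of 2.08 ± 0.248 (SD, n = 3), over backgrounds of 25.2, 19.6 and 22.0 scaled tags. The −log10 q was 1.69, 4.19 and 2.81, so the region passed the authors' threshold by little in m6A IP 1, where 46 tags would have been enough.

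At a high background the limit of 1 strand also bounds the fold that tags of 1 strand can give, although both strands together can give more. With 50 tags at its backgrounds, the Mag region would have had folds of 1.95, 2.47 and 2.22 in m6A IP 1, 2 and 3, only a little above those observed. How far the rank of the Mag region by fold reflects its background was not tested. Its mean pileup exceeded that of 98.2% of the regions found in all 3 replicates, and its mean fold exceeded that of 0.185%, which is 31 of 16757. Among the 232 regions of like background, the median pileup was 47 tags and the median fold 2.35, and 10.3% had a lower fold. Only 45 of the 16757 regions had a higher mean background, so most of the 232 lay over less input, where a like pileup gives a higher fold. The summits were at 31694179, 31694212 and 31694169, a span of 43 bases.

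The other 4 Mag regions were called in m6A IP 2 alone. One of them, from 31684406 to 31684463, had 41 tags at a fold of 2.15 over 33 input tags. The other 3 lay within 494 bases of one another, from 31699435 to 31699928, with 10, 11 and 13 tags at folds of 4.10, 4.48 and 6.08. The last of these, from 31699854 to 31699928, had the highest fold of any peak in the 3 windows. Its −log10 q was 6.40 and its background 1.30 scaled tags, and it passed the lowest called pileup by 6 tags.

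Cnp had its recurrent region over 1 of the highest inputs in the data. The region lay on chromosome 11 from 100437953 to 100438183 and measured 231 bases. The pileup was 49 tags in replicate 1 (interval 36.3 to 64.8), 54 in replicate 2 (40.6 to 70.5) and 50 in replicate 3 (37.1 to 65.9). The fold was 1.76, 2.05 and 1.80, a mean of 1.87 ± 0.161 (SD, n = 3), and the background was 27.5, 25.8 and 27.3 scaled tags. Of the 16757 regions found in all 3 replicates, 1 had a lower mean fold and 7 had a higher mean background. At the backgrounds of the Cnp region, 50 tags would have given folds of 1.79, 1.90 and 1.80 in m6A IP 1, 2 and 3. The limit of 1 strand is no ceiling for the fold, as the 54 tags of m6A IP 2 exceeded it. Among the 61 regions whose mean background was within 20% of that of Cnp, the median fold was 2.22 and the median pileup 49.7 tags. Of these, 1.64% had a lower fold than Cnp. Since only 7 regions in all had a higher background, most of the 61 lay over less input, where a like pileup gives a higher fold.

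The Cnp region lay close to the limit of what could be called. Its −log10 q was 1.39, 3.36 and 1.58 in m6A IP 1, 2 and 3. The lowest pileup that would have passed at its background was 49, 47 and 49 tags in the same order, so the 49 tags of m6A IP 1 were just enough. A pileup of 50 tags passed only over a background of at most 28.5, 28.5 and 28.1 scaled tags in the 3 lists. Its peaks differed in length, 69, 231 and 63 bases, and the summits spanned 112 bases, a wider span than in 89.2% of the regions. With a reciprocal overlap of 50% required, it was no longer found in all 3 replicates.

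The other 3 Cnp regions, like those of Mag, were called in m6A IP 2 alone. They lay from 100437235 to 100437371 with 44 tags at a fold of 2.79, from 100440248 to 100440298 with 47 tags at a fold of 2.05, and from 100442017 to 100442089 with 43 tags at a fold of 2.08. Every Cnp peak thus had at least 43 tags and at least 27 input tags, and the window held no low-input peak. In the GENCODE M21 annotation, which is on GRCm38, Dnajc7 overlaps Cnp on the opposite strand. The peak lists carry no strand, so the part of Dnajc7 RNA in these peaks cannot be told apart from that of Cnp. No other coding gene overlaps Mbp or Mag in that annotation.

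**Figure D2:**
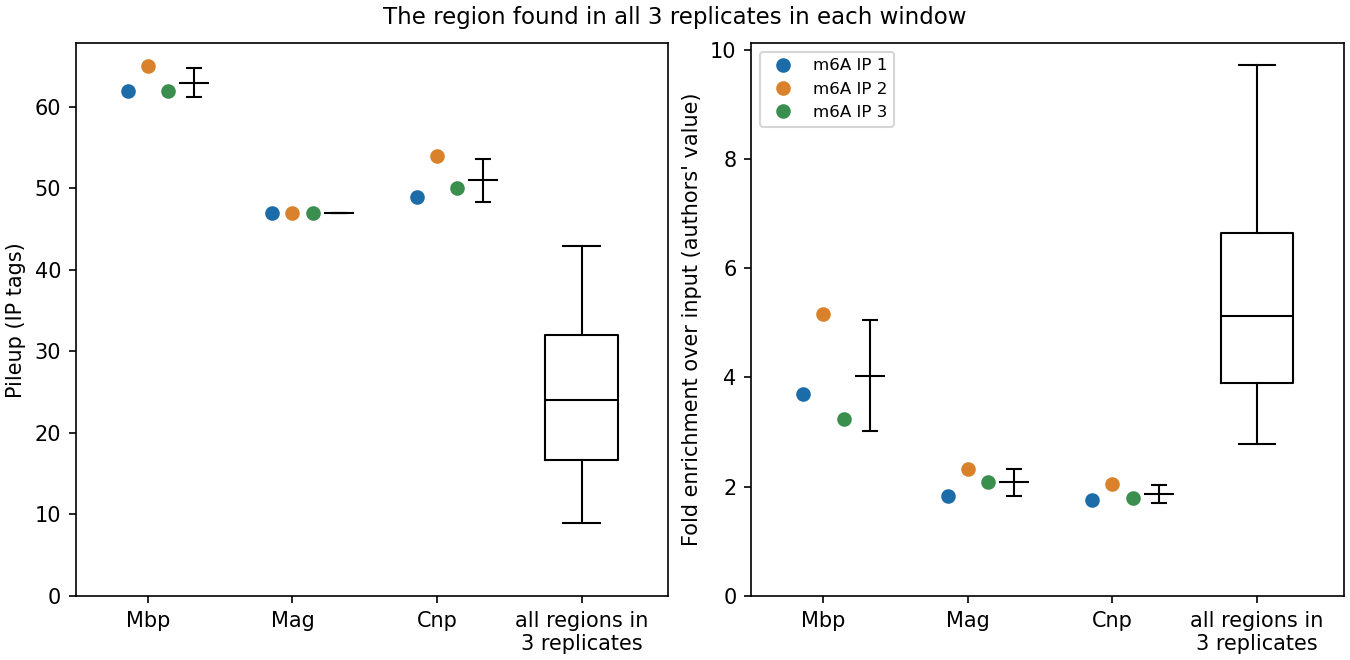
Pileup in IP tags (left) and the authors' fold enrichment over input (right) of the region found in all 3 replicates in each window. Points are the 3 IP libraries, black marks are the mean ± SD (n = 3), and the box at the right shows the region means of all 16757 regions found in all 3 replicates, with the median, the quartiles and whiskers at the 5th and 95th percentiles. The means of Mbp, Mag and Cnp, 63, 47 and 51 tags, lie above the upper whisker at 43 tags, and the folds of Mag and Cnp lie below the lower whisker at 2.77.

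The order of the 3 genes by fold was the same in every library, Mbp above Mag above Cnp. Taken within each library, Mbp exceeded Mag by 1.87, 2.84 and 1.15 in m6A IP 1, 2 and 3, a mean difference in fold of 1.95 ± 0.850 (SD, n = 3), and Cnp by 2.16 ± 0.864. The ranges of Mbp and Mag did not overlap. Mag exceeded Cnp by 0.0772, 0.275 and 0.283, a mean of 0.212 ± 0.117, in 3 of 3 libraries, although their ranges across libraries overlapped. By pileup the order was Mbp, Cnp and Mag in every library, though the counting intervals of Cnp and Mag overlapped throughout. Within each gene the fold was highest in m6A IP 2, the library whose input had the most tags and the smallest scaling factor. No test was made, since a two-sided exact permutation of the signs of 3 differences within libraries cannot give a p below 0.25.

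High pileups were common in these windows. Of the 18 regions, 9 had a peak of 41 or more tags in at least 1 library, whereas 6.25% of all regions did. By peak it was 16 of 29. In m6A IP 1, 2 and 3 it was 4 of 9, 9 of 15 and 3 of 5, against 5.81%, 7.23% and 4.46% of all peaks. Of the 16, 9 belonged to the 3 regions found in all 3 replicates. Among all peaks of that height, 79.1%, 68.3% and 99.1% of those in m6A IP 1, 2 and 3 lay in such regions. Above 50 tags there were 5, and 0.408%, 0.499% and 0.275% of all peaks in the 3 lists. These 5 were 3 of the strong Mbp region, 1 of the last Mbp region and 1 of the Cnp region in m6A IP 2. The input was high at the same places: 20 of the 29 peaks, in 11 regions, had at least 11 input tags. In the whole lists of m6A IP 1, 2 and 3, 15.0%, 29.7% and 12.2% of peaks did. Peaks of 1 region in different libraries count separately here. The median fold of the 20 was 2.23, against 4.25 for the 9 peaks, in 7 regions, with at most 3 input tags. A lower fold over more input follows in part from the fold itself, which divides by the background. In RNA of a whole tissue, fewer cells of a type and less RNA per cell cannot be told apart, and input height at a peak is no measure of either.

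**Figure D3:**
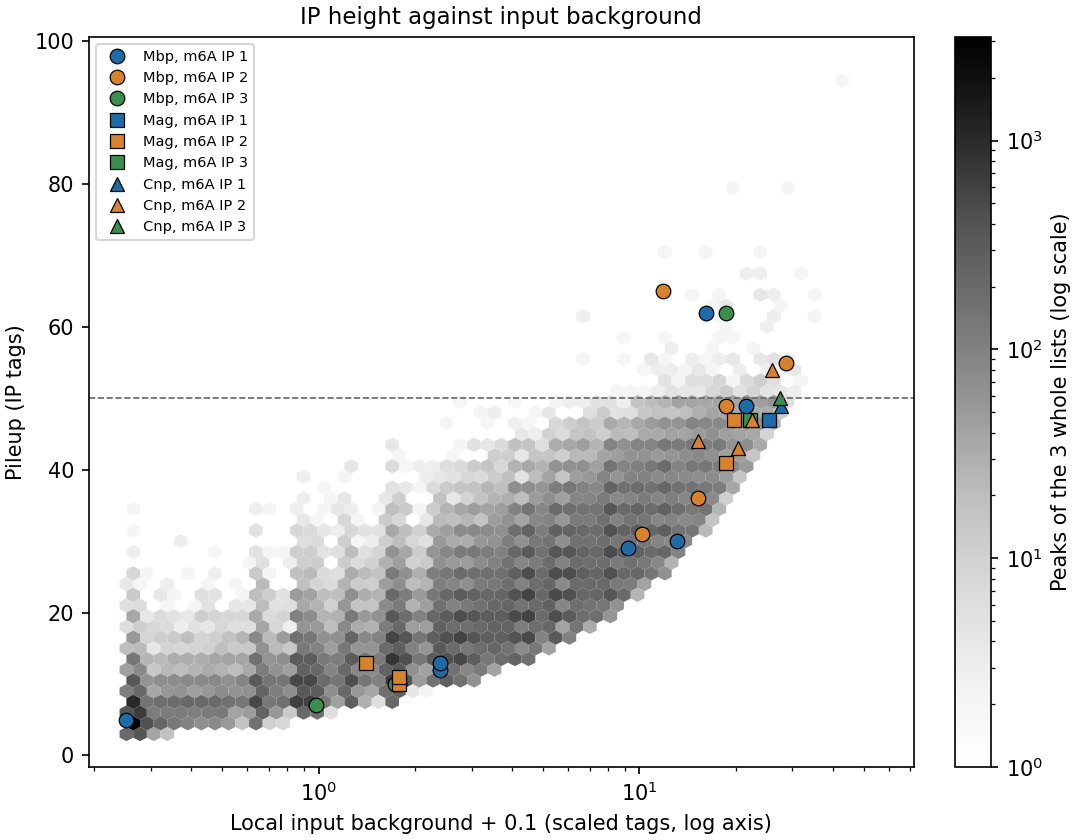
Pileup in IP tags against the local input background in scaled tags (logarithmic axis, 0.1 added) for the 29 peaks of the 3 windows, over all peaks of the 3 lists in grey. Symbols mark the genes, colours the IP libraries, and the dashed line is at 50 tags. The strong Mbp region stands apart at 62 to 65 tags over 11.8 to 18.5 background tags, whereas Mag and Cnp have 41 to 54 tags over 15.1 to 27.5 background tags, apart from 3 low Mag peaks of 10 to 13 tags.

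Much of the number of Mag and Cnp regions came from m6A IP 2. Of the 10 regions found in a single library, 8 were those of m6A IP 2 (80.0%, Wilson interval 49.0 to 94.3), 2 those of m6A IP 1 and 0 those of m6A IP 3. Among all single-library regions m6A IP 2 supplied 40.5%. This interval, too, treats neighbouring regions as independent. Without m6A IP 2, Mag had 1 region in place of 5 and Cnp 1 in place of 4, and Mbp had 8 in place of 9. The input of m6A IP 2 was sequenced more deeply than the others, and 50 input tags scaled to 28.0 background tags there, against 38.2 and 44.0 in m6A IP 1 and 3. A pileup of 50 could thus be called in m6A IP 2 even where 1 strand of the input was full, and not in the other lists. The part of this in the result was not tested. The 8 regions of m6A IP 2 alone included 3 low Mag regions, with 10 to 13 tags over at most 3 input tags. Its other Mag and Cnp regions had 27 to 40 input tags.

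Recurrence in the windows depended on how peaks were filtered. When only peaks with a −log10 q of 10 or more were used, the strong Mbp region was still found in all 3 replicates, and 0 regions of Mag and Cnp were left, while 18.6% of all regions that remained were found in all 3. With a fold of at least 4, no window kept a region found in all 3 replicates, against 25.4% of all remaining ones. When overlapping peaks had to share 50% of each other's length, Mbp and Mag kept theirs and Cnp did not, against 24.6% of all regions. Leaving out m6A IP 1, 2 or 3, the Mbp regions found in both other libraries numbered 2 of 7, 2 of 8 and 4 of 9. For Mag they were 1 of 5, 1 of 1 and 1 of 5, and for Cnp 1 of 4, 1 of 1 and 1 of 4. The shares of all regions were 49.6%, 49.8% and 57.8% in the same order.

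The next peak after the window lay closer for Cnp than for Mbp and Mag. Before the windows of Mag and Cnp, the nearest peaks ended 144723 and 45808 bases away. After the Mbp window the next peak began 6434 bases further on, with 16 tags in m6A IP 1, and before it the next ended 76986 bases away. After the Mag window a region found in all 3 replicates, with 37 to 42 tags, began 10635 bases further on. After the Cnp window a region began 1585 bases further on, with 31 tags at a fold of 2.21 in m6A IP 2, and another began 1902 bases further on, with 35 tags in both m6A IP 1 and 2 at folds of 2.32 and 2.49. Just inside the end of the Cnp window, the last region, of 43 tags, ended 1911 bases before it. The Cnp window measured 9 kb, and the annotated Cnp gene of GENCODE M21 is 16.8 kb long, so it may miss part of that gene. The Mbp and Mag windows, 120 and 18 kb, were longer than their annotated genes of 110 and 15.7 kb.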

How the data were processed

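Polyadenylated RNA of whole mouse brain was measured by m6A-seq in 3 IP and 3 input libraries, grouped by their titles. Per the submitters' processing notes, MACS2 2.1.0 and TopHat2 2.1.0 were among the tools and positions were on mm9. Per the file headers, peaks were called in each replicate with MACS 2.1.0.20151222, a q-value cutoff of 0.05, tags extended to 50 bases, 1 tag kept per position, the larger library scaled to the smaller, and local background over 1000 and 10000 bases. The authors deposited the pileup as a coverage signal in tags, the fold enrichment as a ratio to input, the strength of each peak as a −log10 p-value with its −log10 q-value, and positions in bases.

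From these files, peaks sharing at least 1 base were merged into regions across the 3 lists, and regions with a summit in a window were taken. Every region found in all 3 replicates in a window was to be described. The background was (pileup + 1) / fold − 1. The −log10 Poisson p-value that it gave was within 6.71e-05 of the one deposited by the authors for every peak. The value of a region in a replicate was the highest of its peaks, and regions are not replicates, so no p-value was given. Tested on simulated lists of 25000 peaks, merging found 14985 of 15000 planted regions. The planted peaks nearly shared their centres across lists, and all peaks were placed at random over the chromosomes. The test therefore checked the merging step only, not its behaviour where peaks cluster or summits lie further apart. The genes, windows and comparisons were chosen with earlier results of these data known. Comparisons with regions of like background, differences between genes within a library, counts of high pileups and the share from 1 library were chosen after seeing values. Coordinates are 1-based on mm9. The annotation at hand was on GRCm38, so it gave gene lengths and neighbours only, and sequences, exons and UTRs at the peaks, and other myelin genes, are not reported here. Alternatives changed the threshold, overlap, gap, window and fold, or dropped 1 replicate at a time. The work used scipy 1.17.1, pandas 2.3.3, numpy 2.4.6 and matplotlib 3.10.9 under Python 3.11.15.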

Additional observations from a re-analysis of the deposited data

How the results depend on the processing

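Counts in these windows were small, so single peaks decided them. With a −log10 q of at least 10, Mbp had 1 region in total, and Mag and Cnp had 0 in total and 0 in all 3 replicates. With a fold of at least 4, the totals of Mbp, Mag and Cnp were 4, 3 and 0, and the regions found in all 3 replicates 0 in each window. A reciprocal overlap of 50% left Cnp with 0 regions in all 3 replicates. When 2 replicates were enough, Mbp had 6 recurrent regions. Leaving out a replicate gave 2 to 4 recurrent Mbp regions, 1 to 5 Mag regions in total and 1 to 4 Cnp regions in total. In these last 2 cases the low value came without m6A IP 2. The mean folds of the regions found in all 3 replicates ranged from 3.47 to 4.43 for Mbp, 1.96 to 2.21 for Mag and 1.78 to 1.93 for Cnp. With the input left unscaled, an alternative added after seeing the data, they were 2.91 ± 0.0787, 1.53 ± 0.276 and 1.37 ± 0.213 (SD, n = 3), in the same order. Unscaled input has more tags, which lowers the fold by construction. In all, 66 of 87 values under an alternative stayed within 1.5 times the main count or within 1 SD of the main value. Part of this tally was fixed in advance. A mean of 3 libraries cannot move by 1 SD when 1 library is dropped. Taking the peak with the highest −log10 q could change nothing either, since each region found in all 3 replicates had 1 peak per library. The tally is therefore no measure of robustness. No paired analysis was possible because the input libraries were used only as the background of each IP list, and IP and input could not be compared as groups. Differences between the genes were taken within each library. A pileup of 47 tags, as at the Mag region found in all 3 replicates, carries an interval of 34.5 to 62.5, which limits any ranking of single peaks.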

Other observations

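At the strong Mbp region the number of input tags behind the summit was 21 in each library before scaling, under 62, 65 and 62 IP tags in m6A IP 1, 2 and 3. The pileup over unscaled input, with 1 added to each, was 2.86, 3.0 and 2.86, whereas the deposited folds were 3.70, 5.17 and 3.23. The same ratio was 1.41, 1.33 and 1.85 for the Mag region, with 33, 35 and 25 input tags under 47 IP tags each, and 1.35, 1.17 and 1.59 for the Cnp region, with 36, 46 and 31 input tags under 49, 54 and 50 IP tags. In Mag and Cnp the ratio was lowest in m6A IP 2, where the deposited fold was highest. The inputs differed in depth, so the unscaled ratio is not a measure of enrichment.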
